A study of Mus musculus with 6 samples.

Results

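The 10 genes described here encode signals and receptors of the microglial niche, and they were found by their exact symbols among the 24421 genes measured in hippocampal astrocytes. They are Csf1, Il34 and their receptor Csf1r, the ligands Tgfb1, Tgfb2 and Tgfb3 with the receptors Tgfbr1 and Tgfbr2, and the surface proteins Cd200 and Cd47. All 10 genes had a mean of at least 0.5 CPM (counts scaled to library size) over the 6 libraries and were tested, as were 15137 genes in all. Both groups were adult male Siglechdtr/dtr mice on C57BL/6, aged 8 to 16 weeks, in which the diphtheria toxin (DT) receptor is carried at both copies of Siglech, a gene used mainly by microglia. The control group received PBS and the other group DT at 50 μg/kg, a toxin that kills cells bearing the receptor. Per the study, homozygotes make less Siglec-H, so the PBS group is not a wild type control. Hippocampi were taken 2 days after the injection, CD11b+ cells were removed on magnetic beads, and ACSA-2+ astrocytes were collected by magnetic-activated cell sorting (MACS). Of each group 3 libraries were made, and every library pooled 2 mice, so the spread given here is between pools and not between single animals.

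Microglia depend on signals from the cells around them. CSF1 and IL-34 are separate ligands of 1 receptor, CSF1R, a tyrosine kinase on microglia and macrophages whose activity these cells need to survive and divide. TGF-beta ligands are secreted in a latent form, are released by integrins and proteases, and act through a pair of receptors, TGFBR2 and TGFBR1, on Smad proteins, a pathway that holds microglia in their homeostatic state. CD200 and CD47 are surface proteins that restrain myeloid cells through the receptors CD200R and SIRPα. In the brain, astrocytes are a source of CSF1 and of TGF-beta, and neurons are a main source of IL-34 and CD200. The comparison asked how these genes stood in astrocytes after loss of the microglia that receive the signals.

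Of the 10 niche genes, 1 was lower and 0 were higher in the DT group at an adjusted p-value under 0.05 (limma on log2(CPM + 0.1), two-sided, Benjamini-Hochberg adjustment over the 15137 genes). The lower gene was Csf1r. Among all genes tested, 0.159% were lower and 0.555% higher by the same rule. At an unadjusted p-value under 0.05, 1 niche gene was higher, Csf1, and 2 were lower, Csf1r and Tgfbr1, where 5.91% of all genes tested were higher and 4.51% lower at that level. The 2 groups of libraries did not overlap in CPM for these same 3 genes, with Csf1 higher and the other two lower after DT. Of all genes tested, 16.3% did not overlap, 8.75% with DT above PBS and 7.57% with DT below. Fold changes lay above 0 for 3 niche genes and below 0 for 7, with a median log2 fold change of -0.18 beside -0.01 over all genes tested. The other count tests, run on the reads recovered from the CPM, left Csf1r as the lower gene and differed on Csf1. The edgeR quasi-likelihood test (background 0.575% higher and 0.159% lower) and DESeq2 (1.5% and 0.647%) called 0 niche genes higher. The edgeR exact test (1.26% and 0.476%) and likelihood ratio test (1.28% and 0.482%), both added after the data had been seen, called Csf1 higher.

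**Figure D1:**
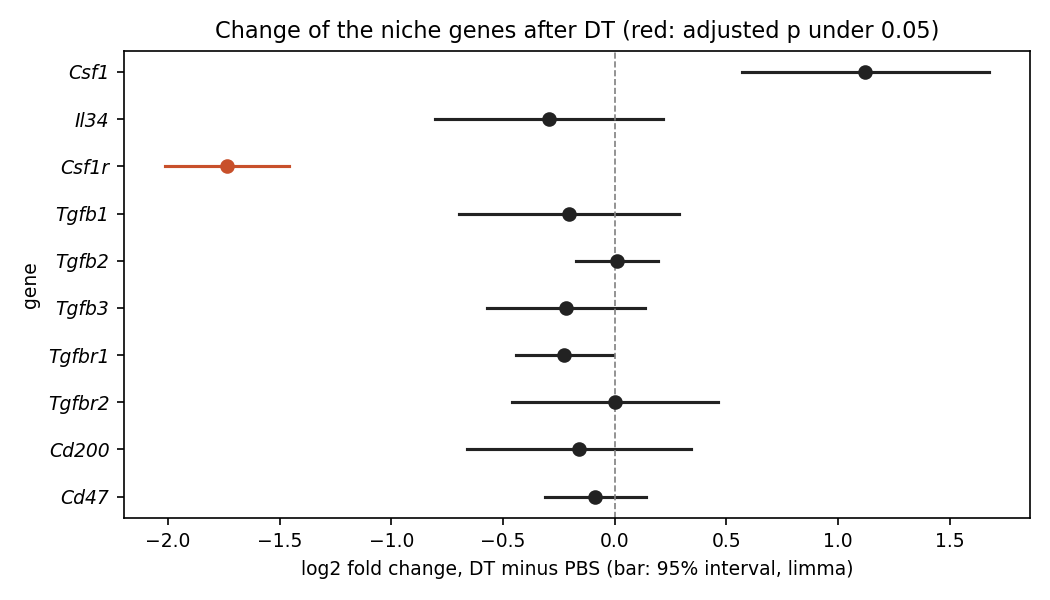
Log2 fold change of each niche gene, DT minus PBS, on the horizontal axis, with its 95% interval from limma over 3 libraries per group. The interval of Csf1r lies below 0 with an adjusted p-value under 0.05 (red), that of Csf1 lies above 0 without passing the threshold, and the other 8 points lie between -0.29 and 0.01.

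The libraries held 21704891 to 32933975 reads, here the whole counts recovered from the CPM. Astrocyte identity was checked with 10 markers, among them Slc1a2 and Aldh1l1, whose summed TPM (transcript abundance scaled to length and library) were 27416 to 28895 in the PBS libraries and 27849 to 29719 in the DT libraries. RNA of other cells was present at lower levels. The 22 microglia markers summed to 347 to 443 TPM after PBS and to 207 to 227 TPM after DT. Siglech, the targeted gene, had 21, 71 and 42 reads in the PBS libraries and 0 reads in each DT library, so that it was at least 14.02-fold lower (against a floor of 3 reads per library). Markers of choroid plexus moved unevenly, summing to 387, 2030 and 106 TPM in the PBS libraries and to 3433, 2333 and 1254 TPM in the DT libraries. The pools came from 3 independent experiments per the study, the labels tie no library to one of them, and p-values measure the spread between the pools.

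In the PBS libraries the niche genes spanned more than an order of magnitude in TPM, a unit that allows for transcript length. Tgfb2 was highest at 65.7 ± 5.80 TPM (SD, n = 3), followed by Cd47, Csf1, Tgfbr2, Csf1r, Cd200, Tgfbr1, Il34, Tgfb3 and Tgfb1, the lowest at 4.55 ± 0.868 TPM (SD, n = 3). Libraries of neighbours in this order overlapped except between Tgfbr2 and Csf1r, between Tgfbr1 and Il34 and between Tgfb3 and Tgfb1. In the DT libraries the order was Csf1, Tgfb2, Cd47, Tgfbr2, Cd200, Tgfbr1, Il34, Tgfb3, Csf1r and Tgfb1. There, neighbours overlapped except between Csf1 and Tgfb2, Tgfb2 and Cd47, Tgfbr2 and Cd200, Tgfbr1 and Il34, and Csf1r and Tgfb1. The position of Csf1 thus went from the third to the first and that of Csf1r from the fifth to the ninth, while the other 8 genes kept their order among themselves.

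**Figure D2:**
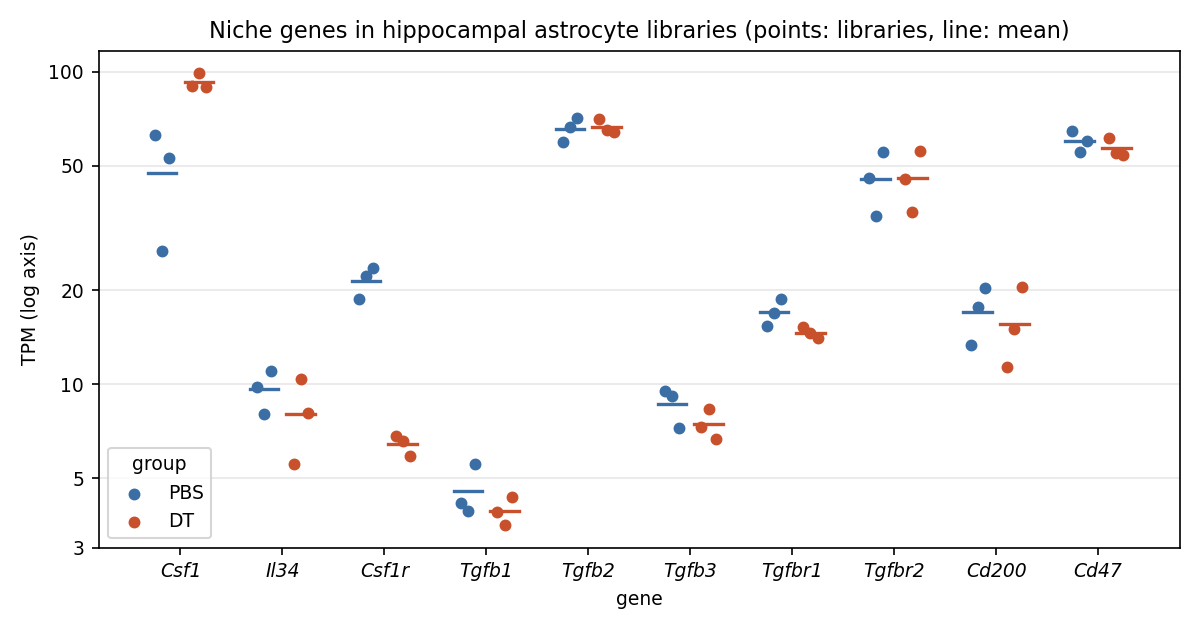
TPM of the 10 niche genes on a log axis, with a point for each of the 3 PBS libraries (blue) and 3 DT libraries (red) and a line at the group mean. Csf1 lies at 26.7 to 62.8 TPM after PBS and at 89.5 to 98.9 TPM after DT, Csf1r at 18.7 to 23.6 and 5.88 to 6.83 TPM, and the points of the other genes, apart from Tgfbr1, overlap between the groups.

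The 250 bases before the RefSeq start of Csf1 and of Tgfb2 are shown because these were the secreted niche ligands of highest TPM in both groups, one whose libraries stood apart between the groups and one whose libraries did not. Both genes are on the minus strand, the sequences are from RefSeq's GRCm38.p6 and run 5′ to 3′ towards the gene, and capitals mark the motif matches. The window of Csf1 is chr3:107760470-107760719 and that of Tgfb2 is chr1:186705990-186706239.
Csf1: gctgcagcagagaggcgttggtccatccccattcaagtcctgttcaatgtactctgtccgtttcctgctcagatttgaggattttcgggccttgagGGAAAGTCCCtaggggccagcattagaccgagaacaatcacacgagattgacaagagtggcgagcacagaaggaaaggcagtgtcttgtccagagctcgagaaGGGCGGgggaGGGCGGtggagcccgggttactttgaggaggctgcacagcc
Tgfb2: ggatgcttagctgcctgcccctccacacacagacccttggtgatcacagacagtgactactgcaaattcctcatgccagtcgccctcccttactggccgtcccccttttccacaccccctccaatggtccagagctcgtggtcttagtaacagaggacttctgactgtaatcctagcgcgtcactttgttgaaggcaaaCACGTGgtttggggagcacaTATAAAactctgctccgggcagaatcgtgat

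In Csf1 the capitals are an NF-kappa B motif, which starts 154 bases before the start, and 2 GC boxes (GGGCGG) that start 51 and 41 bases before it. In Tgfb2 they are an E-box (CACGTG) and a TATA box (TATAAA), which start 51 and 31 bases before the start. The motifs were searched on both strands and chosen after these sequences had been read, together with the AP-1 motif (TGANTCA), which neither window holds. Of 32851 windows of this length in the RefSeq table, this single NF-kappa B string was in 46 (0.140%), the AP-1 motif in 6.75%, the E-box in 6.02%, the TATA box in 12.4% and the GC box in 32.7%. Because the motifs were chosen with the matches known, these shares do not measure how unusual a match is. The table held windows for 7 of the 10 niche genes, and in the windows of Tgfb1, Tgfbr1, Tgfbr2, Cd200 and Cd47 the GC box was the sole motif of the 5 that matched, in all of these genes but Tgfbr2. A match describes the letters and is not a measured binding site.

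Csf1, the growth factor for microglia and macrophages, was the niche ligand with the largest difference between the groups. The gene lies on chromosome 3 of mm10 (107741048 to 107760469, minus strand, GENCODE M21), with 1123 to 3818 reads per library. It stood at 62.8, 26.7 and 53.0 TPM in the PBS libraries and 89.8, 98.9 and 89.5 TPM in the DT libraries. Every DT library was thus above every PBS library, the DT libraries lay close together, and the PBS libraries spread widely, with PBS replicate 2 the lowest of all. The mean was 47.5 ± 18.7 TPM (SD, n = 3) in the PBS group against 92.7 ± 5.35 TPM (SD, n = 3) in the DT group.

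The log2 fold change of Csf1 was 1.12 (with a standard error, SE, of 0.24 and a 95% interval of 0.57 to 1.67), a 2.17-fold higher level in CPM, with a p-value of 0.00143 and an adjusted p-value of 0.114 (limma), so it did not pass the threshold. In TPM, an exact permutation test gave a two-sided p = 0.1, the smallest that 3 against 3 libraries allow. The call depended on the test and on PBS replicate 2. With all 6 libraries, the edgeR exact and likelihood ratio tests called the gene, and DESeq2 and the edgeR quasi-likelihood test did not. Without PBS replicate 2 the log2 fold change was smaller, 0.79, and its adjusted p-value of 0.0355 passed. Over the 18 alternatives the adjusted p-value ran from 0.00176 to 0.369, the log2 fold change ran from 0.79 to 1.35, and 3 alternatives called the gene.

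**Figure D3:**
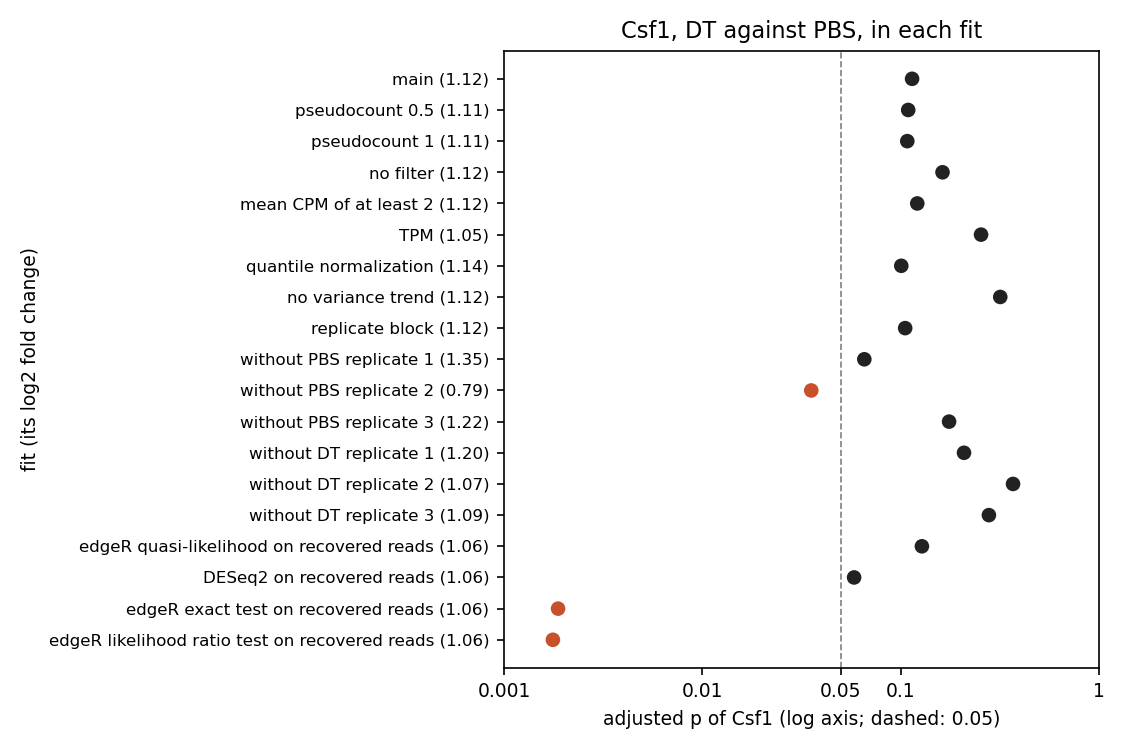
Adjusted p-value of Csf1, DT against PBS, on a log axis for the test reported and its 18 alternatives, with each log2 fold change in brackets and the threshold of 0.05 dashed. The 3 red points under the threshold are the edgeR exact test, the likelihood ratio test and limma without PBS replicate 2.

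Markers of several other cells moved with Csf1 between the groups. The summed markers of border-associated macrophages, which also respond to CSF1, were 28.5, 25.05 and 40.5 TPM after PBS and 81.2, 93.4 and 72.5 TPM after DT. Of these 11 markers 8 were tested, and 8 had log2 fold changes above 0 with a median of 1.42. The threshold was passed as higher by 3, Mrc1, Lyve1 and F13a1, and by 0.555% of all genes tested. All 8 choroid plexus markers had log2 fold changes above 0 (median 1.64, 0 called by limma and 5 higher at an unadjusted p-value under 0.05, a level that 5.91% of all genes tested reached as higher), and so had all 8 ependymal markers (median 0.54, 0 called and 6 at the unadjusted level). The count tests called 0 of the choroid plexus markers. Of the ependymal markers they called 0 (edgeR quasi-likelihood), 2 (DESeq2) and 1 (each of the edgeR exact and likelihood ratio tests) as higher. Of all genes tested, these 4 tests in that order called 0.575%, 1.5%, 1.26% and 1.28% higher. PBS replicate 2, the library with the lowest Csf1, had the lowest macrophage sum and the highest choroid plexus sum of the PBS group. The part of these cells in the difference of Csf1 was not tested.

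Il34, the other ligand of CSF1R, was lower in level and overlapped between the groups. It lies on chromosome 8 (110741829 to 110805924, minus strand), with the antisense genes Gm15894 and Gm15895 on the other strand, and reads were mapped with strand information. With 83 to 188 reads per library it was 9.81, 8.06 and 11.1 TPM after PBS and 5.57, 10.4 and 8.09 TPM after DT. The lowest value was DT replicate 1, and DT replicate 2 was above 2 of the 3 PBS libraries. The log2 fold change was -0.29 (SE 0.22, 95% interval -0.80 to 0.21, adjusted p = 0.697, limma), an interval that leaves room for a change in either direction.

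Csf1 exceeded Il34 in every library, and by more in the DT libraries. In TPM, Il34 made up 13.5%, 23.2% and 17.3% of the sum of both ligands in the PBS libraries and 5.84%, 9.53% and 8.29% in the DT libraries. The log2 ratio of Csf1 to Il34 was 2.21 ± 0.48 (SD, n = 3) after PBS and 3.56 ± 0.39 (SD, n = 3) after DT, so that the groups did not overlap. The difference of 1.35 had a two-sided p = 0.1 in an exact permutation test, the smallest possible. Leaving out each library in turn kept the difference between 1.10 and 1.58.

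Csf1r was the niche gene that fell. It encodes the receptor of CSF1 and IL-34, lies on chromosome 18 (61100598 to 61132149, plus strand) opposite Hmgxb3, and was read 176 to 956 times per library. It was 18.7, 22.1 and 23.6 TPM in the PBS libraries and 6.83, 6.57 and 5.88 TPM in the DT libraries. The lowest PBS library was more than double the highest DT library, and both groups were tight. The PBS mean of 21.5 ± 2.50 TPM (SD, n = 3) fell in the DT group to 6.43 ± 0.491 TPM (SD, n = 3). The log2 fold change of Csf1r was -1.74 (SE 0.12, 95% interval -2.01 to -1.46, adjusted p = 0.000491, limma), or a 3.33-fold lower level in CPM. All 18 alternatives called it lower, with adjusted p-values up to 0.0121.

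Csf1r is a receptor of microglia and macrophages, and the markers of these cells stood beside it as follows. All 22 microglia markers had log2 fold changes below 0, with a median of -1.02, and 9 passed the threshold as lower, as did 0.159% of all genes tested. Of these markers 6 had more negative fitted values than Csf1r, namely Siglech, Selplg, Itgam, Cx3cr1, Tmem119 and Ctss, and 16 had less negative ones. Itgam, the CD11b used for the bead depletion, went from 7.69, 11.2 and 11.0 TPM after PBS to 1.01, 0.886 and 1.46 TPM after DT. The complement genes C1qa, C1qb and C1qc, which macrophages also use, had log2 fold changes of -0.37, -0.33 and -0.60 and did not pass. Against this, the 8 macrophage markers tested lay between 0.47 and 3.85.

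The fold change of Csf1r had the sign of the microglia markers and the opposite sign of the border-associated macrophage markers. Both cell types carry the receptor, and the part of either in the difference of Csf1r was not tested. In these bulk libraries, fewer microglia and less Csf1r RNA per cell cannot be told apart. Of 6 monocyte markers 1 passed the filter on low values, Ly6c2, and their sum was 3.63 to 7.04 TPM after PBS and 2.72 to 4.71 TPM after DT. Plac8 and Chil3 were listed at 0 in every library, and Ms4a4c and Ccr2 were at 0 in some libraries and at most 0.389 TPM in the others. The 3 genes most like Csf1r over the 6 libraries, by Pearson correlation of log2(CPM + 0.1) among the 11791 genes whose mean CPM was 5 or more, were Ctss (r = 0.998), Mdm4 (r = 0.997) and Tcirg1 (r = 0.989). Ctss, a lysosomal protease of microglia, fell from 33.9 to 7.58 CPM and Mdm4, a regulator of p53, from 106 to 28.3 CPM. Tcirg1, a subunit of the proton pump of acid compartments, had 30.4 and 26.8 CPM, a log2 fold change of -0.18 and an adjusted p-value of 0.464 (limma). A high correlation over so few libraries therefore went with changes of very unequal size.

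**Figure D4:**
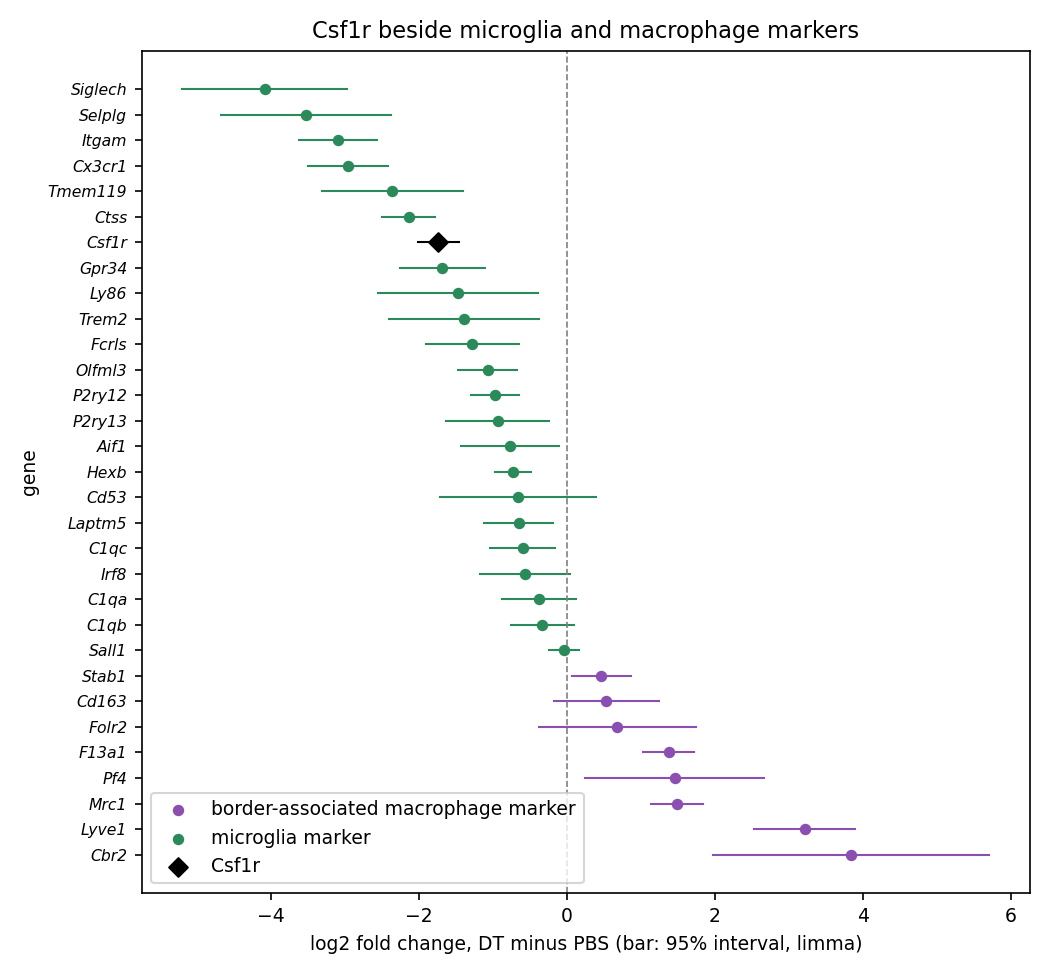
Log2 fold change of Csf1r (black diamond), 22 microglia markers (green) and 8 border-associated macrophage markers (purple), DT minus PBS, with 95% intervals from limma. Csf1r at -1.74 lies among the microglia markers, 6 of which have more negative values, while all 8 macrophage markers lie above 0. The value of Siglech, at 0 reads in the DT libraries, depends on the pseudocount.

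Among the TGF-beta ligands, Tgfb2 was by far the most abundant and had nearly equal means in both groups. The gene lies on chromosome 1 (186622792 to 186705989, minus strand), with the antisense gene Gm29491 on the other strand. With 2124 to 3510 reads per library it was 59.5, 66.7 and 71.0 TPM after PBS and 70.8, 65.2 and 64.0 TPM after DT. The log2 fold change was 0.01 (SE 0.08, 95% interval -0.17 to 0.20, adjusted p = 0.976, limma), so that a change of the size measured for Csf1 lay outside the interval. Of the niche ligands, the difference of Tgfb2 had the smallest SE.

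Tgfb1, the form made by microglia and other myeloid cells, was the lowest of the niche genes. It lies on chromosome 7 (25687002 to 25705077, plus strand), and had 65 to 93 reads per library. It was 4.17, 3.95 and 5.55 TPM after PBS and 3.90, 3.55 and 4.35 TPM after DT, with overlapping groups. For Tgfb1 the log2 fold change was -0.20 (SE 0.22, 95% interval -0.70 to 0.29, adjusted p = 0.791, limma). Tgfb3, on chromosome 12 (86056745 to 86079041, minus strand), opposite Ttll5, was 9.53, 9.17 and 7.23 TPM after PBS and 7.32, 8.36 and 6.68 TPM after DT (175 to 346 reads). Its log2 fold change was -0.22 (SE 0.15, 95% interval -0.57 to 0.13, adjusted p = 0.672, limma).

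By TPM, Tgfb2 made up 81.3% to 84.7% of the summed TGF-beta ligands in the PBS libraries and 84.6% to 86.3% in the DT libraries. The sum itself was 78.9 ± 5.34 TPM (SD, n = 3) in the PBS group against 78.1 ± 3.60 TPM (SD, n = 3) in the DT group. The log2 ratio of Tgfb1 to Tgfb2 was -3.83 ± 0.20 (SD, n = 3) and -4.05 ± 0.18 (SD, n = 3), a difference of -0.22 that overlapped between the groups (exact permutation test, two-sided p = 0.2).

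Of the TGF-beta receptors, Tgfbr1 was lower in each DT library than in each PBS library, by a small amount that did not pass the adjusted threshold. It encodes the type I receptor kinase that phosphorylates Smads, and lies on chromosome 4 (47353222 to 47414931, plus strand). With 614 to 1066 reads per library it was 15.4, 16.9 and 18.8 TPM after PBS and 15.3, 14.6 and 14.04 TPM after DT. PBS replicate 1 and DT replicate 1 nearly touched, so the gap between the groups was narrow. The log2 fold change was -0.23 (SE 0.10, 95% interval -0.44 to -0.01, adjusted p = 0.466, limma). Of the 18 alternatives 0 called it, and the exact permutation p of 0.1 was the smallest possible. Microglia and endothelial cells also use this receptor. The microglia markers are given with Csf1r, and of the 10 endothelial markers 10 had log2 fold changes below 0, with a median of -0.39 and sums of 742, 849 and 1183 TPM after PBS and 629, 659 and 756 TPM after DT. Limma and the edgeR quasi-likelihood test called 0 of these 10. At an unadjusted p-value under 0.05, 5 were lower, a level that 4.51% of all genes tested reached as lower. DESeq2 and the edgeR exact and likelihood ratio tests called 2 lower, Cldn5 and Kdr. Of all genes tested, these tests called 0.647%, 0.476% and 0.482% lower. The part of either cell type was not tested.

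Tgfbr2, the type II receptor that binds the ligand, had nearly equal means in both groups and a wide spread within each. It lies on chromosome 9 (116084293 to 116175360, minus strand), and was read 1642 to 2036 times per library. It was 45.8, 34.5 and 55.5 TPM after PBS and 45.5, 35.7 and 55.6 TPM after DT. Between the groups the log2 fold change was 0.00 (SE 0.20, 95% interval -0.46 to 0.46, adjusted p = 0.999, limma). The microglia and endothelial markers given above had median log2 fold changes of -1.02 and -0.39. Pericyte markers, another cell type that carries this receptor, summed to 1173, 838 and 1267 TPM after PBS and to 999, 1100 and 1376 TPM after DT. Replicate 2 was the lowest of its group for both Tgfbr2 and the pericyte sum in the PBS libraries. In the DT libraries the pericyte sum was lowest in replicate 1. The part of these cell types in Tgfbr2 was not tested.

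Cd200, a neuronal and endothelial ligand that restrains microglia, varied widely within both groups, which overlapped. It lies on chromosome 16 (45382135 to 45409053, minus strand), with 212 to 463 reads per library. It was 13.3, 17.7 and 20.3 TPM after PBS and 11.4, 15.1 and 20.5 TPM after DT, so that the groups overlapped over nearly their whole range. DT against PBS, the log2 fold change was -0.16 (SE 0.22, 95% interval -0.66 to 0.34, adjusted p = 0.851, limma). The 11 neuron markers summed to 573, 713 and 752 TPM after PBS and to 482, 766 and 903 TPM after DT, in the same order of libraries as Cd200 within each group. The 10 endothelial markers summed to 742, 849 and 1183 TPM after PBS and to 629, 659 and 756 TPM after DT, in that order too. In both groups this was also the order of the replicate numbers. The part of neurons or of endothelial cells in the spread of Cd200 was not tested.

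**Figure D5:**
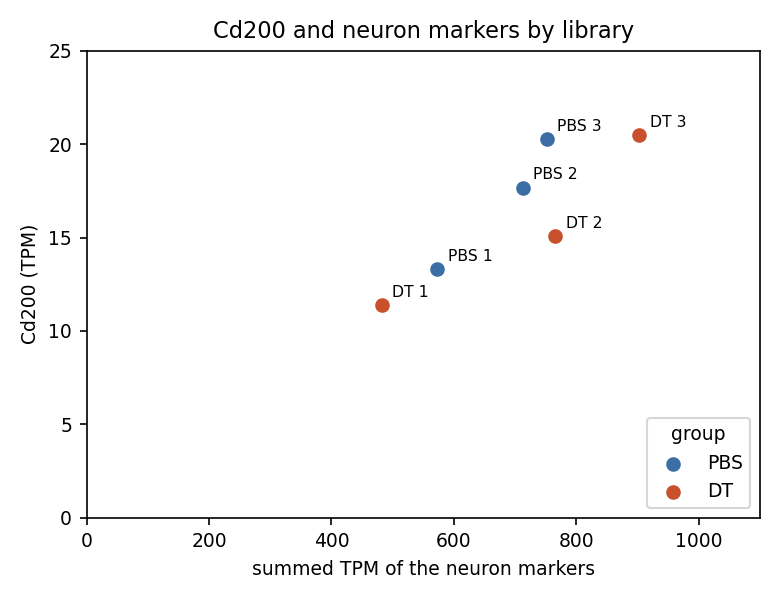
TPM of Cd200 on the vertical axis against the summed TPM of 11 neuron markers on the horizontal axis, with a labelled point for each of the 6 libraries, PBS in blue and DT in red. Within each group Cd200 is lowest in the library with the lowest neuron sum and highest in that with the highest, from 11.4 TPM in DT replicate 1 to 20.5 TPM in DT replicate 3.

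Cd47, the ligand of SIRPα that restrains engulfment, was among the 3 highest niche genes by TPM in both groups. It lies on chromosome 16 (49800533 to 49915010, plus strand), and had 799 to 1183 reads per library. It was 64.5, 55.5 and 60.03 TPM after PBS and 61.5, 55.1 and 54.0 TPM after DT. The groups overlapped, and the log2 fold change was -0.09 (SE 0.10, 95% interval -0.31 to 0.14, adjusted p = 0.809, limma).

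The genes around these signals were counted in lists written from general knowledge, without a set test. A list of 19 genes held CSF1 and IL-34 signaling together with the other colony-stimulating factors, their receptors, Kitl and Flt3l. Of these genes 16 were tested, 0 passed in either direction, and the median log2 fold change was -0.03. At an unadjusted p-value under 0.05, 0 were higher and 2 lower, beside 5.91% and 4.51% of all genes tested. Csf2 and Csf3, which encode the other colony-stimulating factors, were listed at 0 in every library. Ptprz1, which encodes an alternative receptor of IL-34, was the most abundant gene of this list at 758 TPM after PBS and 752 TPM after DT, followed by the PI3-kinase subunit gene Pik3r1 at 163 and 160 TPM and by Adam17, a protease that sheds surface CSF1 and CSF1R, at 37.4 and 38.7 TPM. The edgeR quasi-likelihood test called 0 of these genes. DESeq2 and the edgeR exact and likelihood ratio tests, which called 0.647%, 0.476% and 0.482% of all genes tested lower, called 1 lower. It was Csf3r, which encodes the receptor of CSF3 and was named after its values were seen. It had 30, 62 and 59 reads after PBS and 13, 15 and 16 reads after DT. Its log2 fold change was -1.57, with an adjusted p-value of 0.117 in limma.

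Of 21 genes of TGF-beta latency and activation, 18 were tested and 0 passed, with a median of 0.03. At the unadjusted level 1 was higher and 2 were lower, beside 5.91% and 4.51% of all genes tested. The integrin genes Itgb8 and Itgb5, whose products help to free latent TGF-beta, stood at 283 and 309 TPM and at 232 and 213 TPM after PBS and DT, and the protease gene Mmp14 at 205 and 190 TPM. The edgeR quasi-likelihood test called 0 of the listed genes. DESeq2 and the edgeR exact and likelihood ratio tests, which called 0.647%, 0.476% and 0.482% of all genes tested lower, called 1 lower. It was Ltbp4, which encodes a latent TGF-beta binding protein. This gene, also named after its values were seen, was 41.1, 39.5 and 58.5 TPM after PBS and 27.8, 33.4 and 33.5 TPM after DT, with an adjusted p-value of 0.215 in limma.

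Of 21 further receptor and Smad genes, 21 were tested and 0 passed, with a median of -0.06. At the unadjusted level 0 were higher and 2 lower, beside 5.91% and 4.51% of all genes tested. None of the count tests called any of them. The most abundant were the Smad repressor gene Ski at 100.3 and 102 TPM, the Smad phosphatase gene Ppm1a at 94.4 and 95.9 TPM, and Smad4, the shared partner of the pathway's Smads, at 60.2 and 59.0 TPM. Of 15 target genes of TGF-beta, 15 were tested and 0 passed by any of the tools, with a median of -0.03 (1 higher and 1 lower at the unadjusted level). Tsc22d1 stood at 335 TPM after PBS and 291 TPM after DT, Junb at 102 and 111 TPM, and Cyr61 at 85.9 and 87.1 TPM.

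In the BMP and activin branch, 24 of 28 genes were tested, 0 rose and 1 fell, with a median of 0.01 (1 higher and 2 lower at the unadjusted level). Of all genes tested, 0.159% fell by the same rule, and 5.91% were higher and 4.51% lower at the unadjusted level. The gene of this list that fell was Gdf10, which encodes a ligand of the TGF-beta superfamily also called BMP3B. It was 34.2, 30.6 and 33.3 TPM after PBS and 22.7, 21.1 and 22.4 TPM after DT, so that every DT library was lower. Its log2 fold change was -0.58 (SE 0.10, adjusted p = 0.0379, limma), and 8 of the 18 alternatives lost the call (adjusted p from 0.000231 to 0.200 over all 18), among them each fit without 1 library. The most abundant genes of this list were the Smad targets Id4, Id2 and Id3, which encode inhibitors of DNA binding. Id4 was 1083 TPM after PBS and 885 TPM after DT (log2 fold change -0.30, adjusted p = 0.343, limma), Id2 was 760 and 767 TPM, and Id3 was 214 and 210 TPM.

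For the partners of CD200 and CD47, 9 of 15 genes were tested and 0 passed in limma or in the count tests, with a median of 0.04. At the unadjusted level 2 were higher and 0 lower, beside 5.91% and 4.51% of all genes tested. Sirpa, the receptor of CD47, was at 395 TPM after PBS and 395 TPM after DT. Cd24a, which encodes a small surface protein, was 93.1 and 132 TPM (log2 fold change 0.46, adjusted p = 0.371, limma) and Rasa1, a regulator of Ras, was 69.2 and 64.8 TPM. Dok2, which encodes an adaptor of the CD200 receptor, was under the filter on low values and was named after its values were seen. It had 0, 0 and 3 reads after PBS and 26, 23 and 21 reads after DT, at least 7.64-fold higher against the floor of 3 reads per library. The receptor genes Cd200r3, Cd200r4 and Sirpb1a were listed at 0 in every library. Cd200r1, also in this list, was not at 0 throughout either group.

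Among 14 other ligands for microglia, 9 were tested and 2 rose, with a median of 0.10 (3 higher and 2 lower at the unadjusted level). Of all genes tested, 0.555% rose by the same rule, and 5.91% were higher and 4.51% lower at the unadjusted level. Ccl2, a chemokine gene, rose from 2.53, 1.99 and 0.51 TPM to 14.3, 9.96 and 14.1 TPM (log2 fold change 2.74, SE 0.43, adjusted p = 0.0314, limma). It had 4 to 18 reads in the PBS libraries and 83 to 92 in the DT libraries, and 12 of 18 alternatives called it (adjusted p from 1.87e-09 to 0.138). Pros1, which encodes protein S, a ligand of TAM receptors that promote engulfment, rose from 59.7, 57.3 and 64.7 TPM to 88.5, 90.9 and 94.5 TPM (log2 fold change 0.58, SE 0.07, adjusted p = 0.00826, limma), and 17 of 18 alternatives called it (adjusted p from 7.01e-09 to 0.0805). DESeq2 and the edgeR exact and likelihood ratio tests also called Cxcl12 lower, another chemokine gene, with 74.0, 61.8 and 91.6 TPM after PBS and 45.7, 51.7 and 59.3 TPM after DT (adjusted p = 0.217 in limma). In that order, these tests called 0.647%, 0.476% and 0.482% of all genes tested lower. The most abundant were Apoe at 45235 and 43065 TPM, Clu at 7839 and 9011 TPM and Mfge8 at 2371 and 2016 TPM, which encode secreted lipid carriers and a bridging protein for engulfment. Clu did not pass (log2 fold change 0.19, adjusted p = 0.473, limma), and quantile normalization was the sole alternative of 18 to call it higher (0.22, adjusted p = 0.00852, in a range up to 0.660). Il6, Il10, Il4 and Ifnb1 were listed at 0 in every library.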

How the data were processed

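Hippocampal astrocytes of 3 PBS and 3 DT pools were sequenced (SMARTer Stranded RNA-seq Kit, 151 nt). Per the study and the submitters' processing notes, the authors used Trim Galore 0.5.0, HISAT2 2.1.0 with strand information on mm10, BEDTools 2.25.0 to remove ribosomal reads, StringTie 1.3.5 and edgeR 3.24.3 in R 3.5.1. The authors deposited 2 tables, 1 of TPM and 1 of CPM, a signal whose library sizes carry TMM scaling, where the design had assumed plain CPM. The results of their own comparison (p, q and log fold change, 3 columns per table) were not used. In the tables, 27 gene names had become dates.

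In the deposited CPM, 100% of values came out as whole count steps (tolerance 0.00055 CPM), so counts per gene were recovered, called reads here. The study quantified genes with StringTie, and whether such a count equals a sequenced read cannot be told from the deposited values. Genes whose mean CPM was 0.5 or more were compared on log2(CPM + 0.1) by a two-sided limma test (limma 3.58.1, R 4.3.3) with the variance trend, Benjamini-Hochberg adjustment and a threshold of 0.05. Fold changes on this scale understate those of low genes. Levels and ratios between genes used TPM, with 0.1 added in ratios. The alternatives were pseudocounts of 0.5 and 1, TPM, quantile normalization, a filter at a mean CPM of 2 and none, a fit without the variance trend, a replicate block, each library left out, and edgeR 4.0.16 and DESeq2 1.42.0 on the recovered reads. Beside the niche genes, the text names list members past the threshold, the 3 of highest TPM in each list, the 3 genes most like a called niche gene, and markers at 0 or moving with one. Other list genes at 0 are named too. Csf3r, Ltbp4 and Cxcl12, called by count tests and not by the limma test reported, and Dok2, under the filter, were named after their values were seen. The members, lists and tests were chosen with earlier results of these data known.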

Additional observations from a re-analysis of the deposited data

How the results depend on the processing

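Fits over all genes gave 84 higher and 24 lower genes. Without a variance trend 35 were higher and 11 lower, DESeq2 called 227 and 98, the edgeR exact test 191 and 72, and the likelihood ratio test 193 and 73. Leaving out each library gave 39 to 72 higher and 9 to 20 lower. The count of niche genes called higher, 0 in the fit reported, was 1 (Csf1) with the exact test, 1 with the likelihood ratio test, and 0 to 1 when each library was left out, the 1 being the fit without PBS replicate 2. The replicate block gave 79 higher and 30 lower genes, and it changed no call of a niche gene (Csf1 adjusted p = 0.106, Csf1r adjusted p = 0.00425). The deviations of same-numbered libraries from their group means had correlations of 0.115, 0.0105 and 0.118, not every library correlated best with its own number, and the numbers were not taken as pairs. The cause of these differences was not tested. Both ratios kept their direction in every alternative. Log2 fold changes near 0 changed sign when 1 library was left out, within the ranges -0.0498 to 0.0669 for Tgfb2, -0.19 to 0.18 for Tgfbr2, -0.37 to 0.0319 for Cd200, -0.11 to 0.0227 for Ptprz1, -0.0543 to 0.0175 for Pik3r1, -0.0386 to 0.0555 for Ski, -0.0144 to 0.0472 for Ppm1a, -0.0646 to 0.0882 for Cyr61, -0.00304 to 0.28 for Junb, -0.0277 to 0.0489 for Id2, -0.12 to 0.0581 for Id3 and -0.11 to 0.0137 for Sirpa. For Tgfbr2 the value was also -0.00191 with DESeq2 and -0.000539 with the edgeR exact and likelihood ratio tests. Tgfb1 (65 to 93) and Il34 (83 to 188) had the fewest reads per library of the niche genes, with SE of 0.22 each beside 0.24 for Csf1.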

Other observations

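Tgfbr2 spread widely within each group, yet the libraries of equal replicate number were close. In CPM, the DT library differed from the PBS library of the same number by -1.22%, 2.64% and -1.21%, although the labels do not say that a number marks shared material. For Csf1 the same comparison gave 42.7%, 266% and 97.4%, and for Csf1r -63.7%, -70.6% and -75.4%. Such closeness was not particular to Tgfbr2, as Cd47 gave -5.00%, -1.50% and -11.1%. Cd200 gave -15.2%, -15.5% and -0.215%, and Il34 gave -40.4%, 24.3% and -27.8%. These pairs were looked at after the values had been seen.

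The deposited TPM and CPM of Csf1 were not in a fixed ratio. TPM divided by CPM was 0.789 to 0.870 in the PBS libraries and 0.744 to 0.858 in the DT libraries, where the median gene had ratios of 1.002 to 1.05, so the difference of Csf1 was somewhat smaller in TPM (log2 fold change 1.05) than in CPM (1.12).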
